A study of Mus musculus with 10 samples.

Results

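In CD4+ cells of the mouse thymus, 2275 genomic regions carried a called peak of H3K4me2 (histone H3 dimethylated at lysine 4) that none of 7 other lymphocyte libraries had. They were found by joining the peaks of all 8 libraries wherever they lay within 500 bp of each other, and keeping those joined regions whose only peaks came from the thymus. They made up 7.57% of the 30062 joined regions and 11.4% of the 19913 regions with a thymus peak. They were selected on the presence or absence of called peaks in the 8 lists, so their absence elsewhere and their thymus signal are description, and no test was made on either. The tallest lay on Rag1, on Endou and around Cd8a.

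The libraries were made from sorted lymphocyte fractions of Gata3-YFP/YFP mice, which carry a fluorescent reporter of Gata3, with airway inflammation, and all groups share that genotype and state. Strain and age are not given in the sources used here. The thymus CD4+ cells gave 1 library. Against it stand 2 libraries each of ILC2s (innate lymphoid cells of group 2), of Th2 cells (the type 2 helper T cells) and of naive T cells, 1 from bronchoalveolar lavage and 1 from the mediastinal lymph node in each case, and 1 library of spleen CD4+ cells. A further 2 samples titled as IgG, from thymus and from spleen, carry the H3K4me2 antibody in their labels; their own files were not used here, and they enter only as the background of the authors' peak finder. The thymus IgG served every list except that of spleen. The labels do not give the sort gates, so whether CD8-bearing cells were kept among the thymus CD4+ cells is not stated, nor do they say which libraries came from separate animals. With 1 thymus library no difference between thymus and another group has a replicate check.

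The thymus is where T cells are made. Precursors rearrange their antigen receptor genes with the RAG1 and RAG2 recombinase, pass through a stage at which they display both CD4 and CD8, and are then selected into CD4+ or CD8+ T cells that leave for the blood and lymph nodes. Rag1, Rag2, the pre-receptor chain gene Ptcra and the template-free polymerase gene Dntt are shut down when cells mature. H3K4me2 marks promoters and enhancers that are active or held ready for use.

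The promoters of Rag1, Cd8a and Ptcra are shown because each lay inside a region called in thymus alone, and they had the tallest such regions on a start among genes of the thymocyte lists (the other, at Id4, held 45.7 tags). Each is the 250 bases before the RefSeq gene start in GRCm38.p6 (mm10), 5′ to 3′ on the gene's own strand. Capitals mark CANNTG, the E-box letters read by E proteins such as E2A and HEB, and TGTGGT, the core letters of a RUNX site, on either strand.
Rag1, minus strand of chr2:101649533-101649782: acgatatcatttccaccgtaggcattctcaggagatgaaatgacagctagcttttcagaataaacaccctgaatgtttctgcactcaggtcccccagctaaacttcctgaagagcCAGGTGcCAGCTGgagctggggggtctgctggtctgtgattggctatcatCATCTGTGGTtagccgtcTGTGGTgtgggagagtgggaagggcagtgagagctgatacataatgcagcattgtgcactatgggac
Cd8a, plus strand of chr6:71373177-71373426: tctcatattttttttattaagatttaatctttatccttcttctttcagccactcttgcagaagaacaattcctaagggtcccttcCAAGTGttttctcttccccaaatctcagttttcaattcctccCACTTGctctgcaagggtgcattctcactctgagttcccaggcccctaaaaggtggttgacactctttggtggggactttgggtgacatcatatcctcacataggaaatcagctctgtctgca
Ptcra, minus strand of chr17:46763713-46763962: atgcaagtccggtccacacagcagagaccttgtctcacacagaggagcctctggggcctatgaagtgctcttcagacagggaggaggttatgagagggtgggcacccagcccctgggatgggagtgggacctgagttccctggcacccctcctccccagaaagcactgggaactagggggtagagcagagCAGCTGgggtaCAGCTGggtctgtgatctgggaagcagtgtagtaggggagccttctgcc

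The Rag1 promoter held 2 TGTGGT matches and 3 E-box matches, of which 1 pair overlaps and is printed as 1 run of capitals. The Cd8a promoter held 2 E-boxes and the Ptcra promoter 2, both of them CAGCTG. Such letters are common: CANNTG stood in 70.7% of the 116 gene starts that regions called in thymus alone cover, 55.5% of the starts in shared thymus regions and 62.8% of all 21263 starts. TGTGGT stood in 11.2% of member starts, 10.2% of shared ones and 12.4% of all. A match says only that the letters are there.

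A second set of sequences is shown because 1 region of 261.6 tags (chromosome 8, 84207415 to 84210632), 310 bp outside Zswim4, covered a whole cluster of microRNA genes, Mir23a, Mir27a and Mir24-2, with Mir3074-2 on the other strand. The mature 3p products are given with the seed, bases 2 to 8, in capitals.
miR-23a-3p, plus strand: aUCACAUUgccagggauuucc
miR-27a-3p, plus strand: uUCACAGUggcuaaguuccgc
miR-24-3p, plus strand: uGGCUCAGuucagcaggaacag
No 2 of these 3 seeds are the same. The neighbouring region at 84196525 was called in all 8 libraries, with 815.3 tags in thymus and between 549.7 and 834.2 in the others. In all, 7 of the 1005 microRNA hairpins in the RefSeq table lay in 4 regions called in thymus alone. The other 3 were Mir7049 (271.6 tags, nearest coding gene Pak4), Mir1943 (89.3 tags, Tmem184b) and Mir5618 (68.3 tags, Tmem123). Hairpins in the remaining joined regions were not counted, so 7 is not read as many or few.

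Signal is given as normalized tags, the number of sequenced tags in a peak scaled by the authors to a library of 10000000 tags, and is summed where a library had several peaks in a region. The thymus library held 19036573 tags, within the range of the others (11870820 to 24945548). The share of its tags inside peaks, the immunoprecipitation efficiency, was 53.3%, against 53.7% in lymph node naive T cells and 28.7% to 45.0% in the other 6 libraries. All lists used a tag minimum near 40 per 10000000, but the excess over IgG was also required, so a region missing from a list was not called there and may still hold signal. In a sorted population, few cells with a strong mark and many cells with a weak one cannot be told apart.

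The label of the thymus library was set against its defining markers. All 6 T cell markers, Cd3e, Cd3d, Cd3g, Cd4, Cd28 and Lck, had a thymus region over the gene, and Cd4 reached 2743.6 tags. Every other library, ILC2s included, also had a region on all 6, so their presence does not set the thymus apart. They summed to 14689.0 tags in thymus, against 1422.6 to 13519.4 in the 6 airway and lymph node libraries and 11039.6 in spleen. Cd3d and Cd3g lay in the same region, which counts for both. All 7 thymocyte markers (Rag1, Rag2, Ptcra, Dntt, Cd8a, Cd8b1 and Cd1d1) had a thymus region too. These summed to 14401.8 tags, against 96.0 to 1260.1 in the 6 airway and lymph node libraries and 876.4 in spleen. Over the gene itself, only Rag1, Ptcra and Cd8a among them had a region called in thymus alone. For other cell types, thymus regions lay on 3 of 4 B cell markers, on 2 of 4 myeloid markers with none on Csf1r or Lyz2, on 2 of 4 thymic epithelial markers with none on Krt8 or Psmb11, and on 1 of 3 erythroid markers with none on Gata1 or Alas2. The sums were 1507.1 tags for B cell markers in thymus, against 498.7 to 1589.8 in the airway and lymph node libraries and 1288.5 in spleen. Myeloid markers summed to 332.6 tags in thymus, against 0 to 399.4 in the airway and lymph node libraries and 276.9 in spleen. Thymic epithelial markers summed to 264.3 tags in thymus, above the 44.3 to 258.0 of the airway and lymph node libraries and the 215.9 of spleen. Erythroid markers summed to 195.9 tags in thymus, against 52.4 to 276.2 in the airway and lymph node libraries and 184.2 in spleen.

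The number called in 1 library alone was largest for the thymus. Lymph node naive T cells had 862 such regions (2.87% of all regions) and those of the lavage 296 (0.985%). Lymph node ILC2s had 796 (2.65%) and lavage ILC2s 629 (2.09%). Lymph node Th2 cells had 161 (0.536%), lavage Th2 cells 47 (0.156%) and spleen CD4+ cells 64 (0.213%). The 6 airway and lymph node libraries form pairs of 1 cell type, so a region of that type is often called in both and then counts for neither, which does not apply to the thymus. Regions called in both ILC2 libraries and no other numbered 2519.

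**Figure D1:**
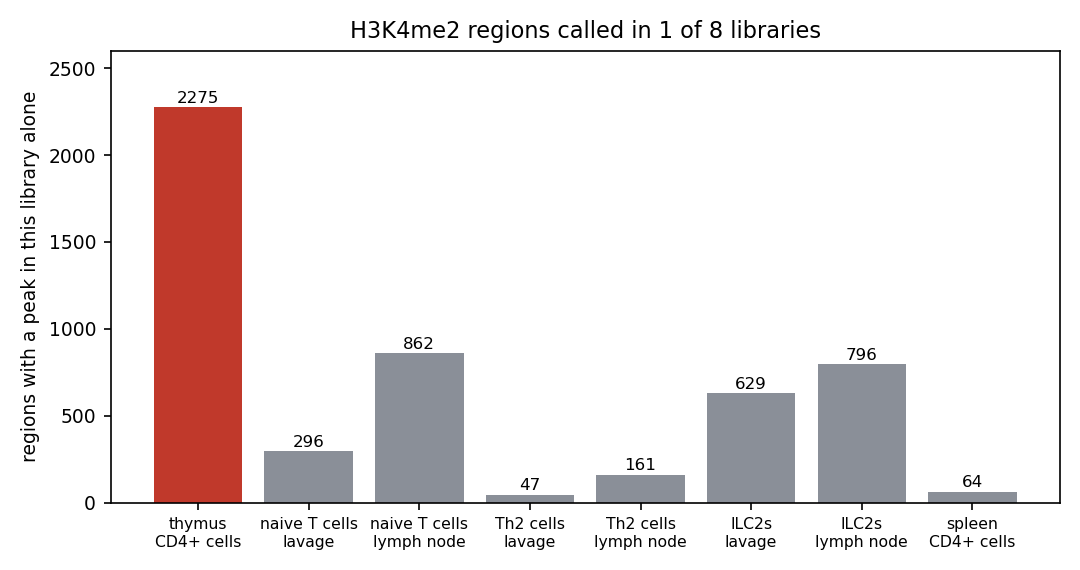
Number of joined H3K4me2 regions (vertical axis) called in 1 library and in none of the other 7, 1 bar for each library. The thymus bar stands at 2275 and the next, lymph node naive T cells, at 862.

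Where a thymus region was shared with 1 other library alone, that library was most often the lymph node naive T cells. Of the 686 regions shared by thymus and exactly 1 other library, 547 (79.7%) had their second peak there, with median signals of 66.7 tags in thymus and 46.3 in lymph node naive T cells. Lymph node ILC2s had 46, lavage ILC2s 41, spleen 29, lavage naive T cells 15, lymph node Th2 cells 6 and lavage Th2 cells 2. Over all 30062 joined regions, lymph node naive T cells also had a peak in the most, 21089, against 14099 to 20727 in the other libraries. How far this longer list accounts for the 547 was not tested. At the other end, 11038 thymus regions were called in all 8 libraries. Without the lymph node naive T library, 2827 regions would be called in thymus alone.

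Most regions called in thymus alone were low and short, and a few were among the tallest of the thymus. Their signal ran from 36.2 to 2284.0 normalized tags, with a median of 65.7 and quartiles of 46.8 and 106.1. The median was 221.7 for the 17638 thymus regions shared with another library. Tags are counted over the whole peak, and the shared regions were longer, with a median of 3280 bp. Among regions of up to 2 kb the medians were closer, at 56.2 tags for thymus alone and 71.7 for shared thymus regions. Of the 2275, 1394 (61.3%) had under 80 tags, 693 had 80 to 200, 139 had 200 to 400 and 49 (2.15%) had 400 or more. Only 9 reached 1000, and 14 stood among the 1000 tallest of the 20723 thymus peaks. Each consisted of 1 thymus peak. The median length was 1276 bp, 842 had exactly the smallest length of 1 kb and 11 were longer than 10 kb. The authors' fold over IgG had a median of 23.9 and a range of 5.33 to 629.42.

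**Figure D2:**
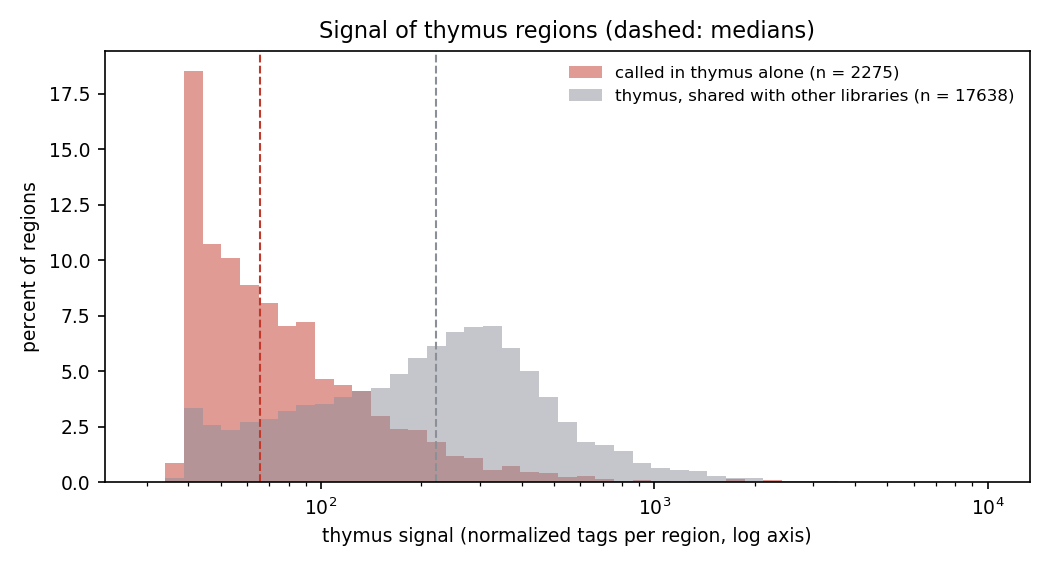
Signal of thymus regions in normalized tags (horizontal log axis) against the percent of regions in each bin, for the 2275 regions called in thymus alone (red) and the 17638 shared with other libraries (grey). The dashed medians are 65.7 and 221.7, and the red distribution keeps a thin tail up to 2284.0. The sets are not matched for length, with medians of 1276 bp for thymus alone and 3280 bp for shared regions.

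Because the rule is a yes or no in 8 lists, values at its edges are given. The 3 lowest members lay near Fam204a (36.2 tags), inside Syndig1l (36.8) and inside Flot1 (37.3). The 3 members nearest to joining another library's peak lay near Kcna2, Nfkb1 and Snx13, at gaps of 511, 546 and 563 bp. The median gap to a peak of another library was 14157 bp, and 177 members had one within 2500 bp. Just outside the rule, some of the tallest thymus regions on thymocyte genes had weak peaks elsewhere. The Cd8b1 region held 3767.0 tags in thymus, with 104.4 in lymph node naive T cells and 82.0 in spleen. At Dntt the values were 3438.6 in thymus, 755.6 in lymph node naive T cells, 83.4 and 93.7 in ILC2s and 509.1 in spleen.

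The recombinase locus held the tallest member. Rag1, which encodes the DNA-cutting subunit, was covered over its whole length by a region of 17149 bp (chromosome 2, 101636249 to 101653398) with 2284.0 tags in thymus and no called peak in any other library, the 42nd tallest peak of the thymus list. The next region, over Rag2, the partner subunit, and the end of Iftap, an intraflagellar transport gene, held 2453.2 tags in thymus, 131.6 in lymph node naive T cells, 277.8 and 219.8 in ILC2s of lavage and lymph node and 44.3 in spleen, so Rag2 itself fell outside the set. On the far side of Rag2, inside and beyond Iftap, 6 further regions were called in thymus alone with 574.7, 350.4, 212.7, 202.8, 98.8 and 45.2 tags, spanning 59.9 kb. Traf6, a signalling adaptor gene on the Rag1 side, had a region in all 8 libraries, with 304.2 tags in thymus and 177.8 to 297.9 in the others.

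The Cd8 locus showed a similar layout. Cd8a, the alpha chain of the co-receptor for class I molecules, was covered from its start by a region of 1810.7 tags (chromosome 6, 71369033 to 71380781), and a second of 1777.6 tags (71350827 to 71364825) lay 8602 bp before it, between Cd8b1 and Cd8a. Inside Rmnd5a, a ubiquitin ligase subunit gene next to Cd8a, another region held 1334.3 tags. Before Cd8b1, the beta chain gene, 2 more held 266.9 and 475.9 tags, the second overlapping Gm1070. None of these 5 regions had a called peak in the other 7 libraries. The Rmnd5a start region was called in all 8, with 618.8 tags in thymus and 180.2 to 413.2 in the others.

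**Figure D3:**
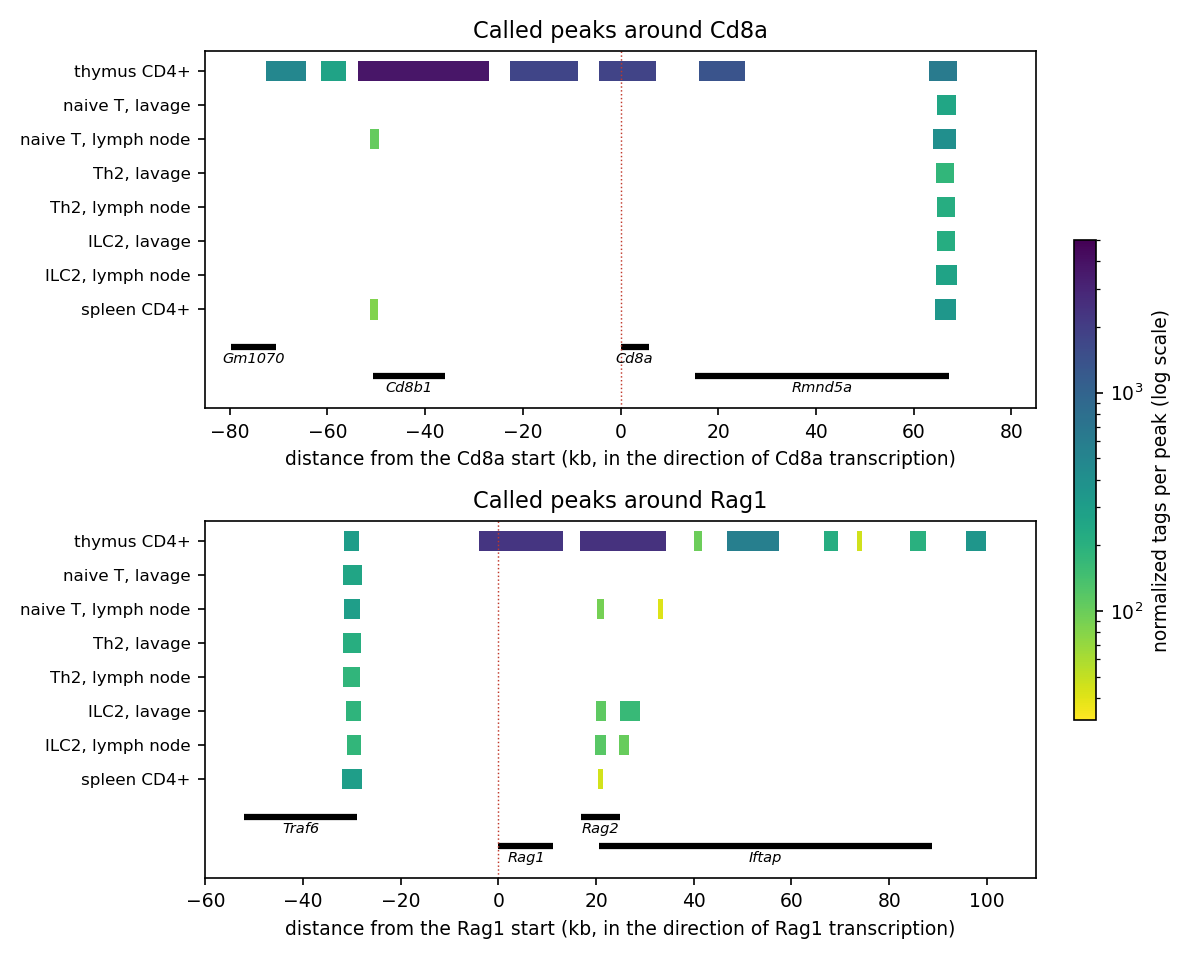
Called peaks of each library (rows, thymus on top) around Cd8a and Rag1, by distance from the gene start in kb along the direction of transcription, coloured by normalized tags per peak on a log scale; black bars are genes. Peaks at both gene starts, marked by the dotted line, stand in the thymus row alone, while the Rmnd5a start and Traf6 have peaks in all 8 rows.

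The other members among the 15 tallest lay mostly inside genes, away from the gene starts used here. Those starts lack part of the genes, so the start of a named gene may still lie in its region. Endou, an endoribonuclease gene, held a region of 2131.7 tags and 17746 bp (chromosome 15, 97714731 to 97732477), the longest of the set. Its neighbour over Rapgef3, an exchange factor gene activated by cyclic AMP, held 1365.3 tags in thymus and 59.6 in lymph node ILC2s, and so fell just outside. Mad1l1, a spindle checkpoint gene, held 1689.4 tags. Xrcc6, which encodes the Ku70 protein that binds broken DNA ends during end joining, held 1680.4 tags (chromosome 15, 82021763 to 82035342) inside the gene, beside a second region called in all 8 libraries. Medag, an adipogenesis gene, held 1472.4 tags, Tbc1d22a, a gene with a Rab-regulating domain, 1020.1, and Slc6a19, a neutral amino acid transporter gene, 965.0 over its start.

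P2rx1, an ATP-gated ion channel gene, held 909.8 tags, Nfatc3, a calcium-responsive factor gene that acts in thymocytes, 809.0, the microtubule gene Map4 742.8, the uncharacterised Gm525 716.0 at 3004 bp outside it, and Jazf1, a zinc finger gene, 685.0. By signal the 15 ranked from 42 to 1052 among the 20723 thymus peaks. All 15 stayed thymus alone when peaks were joined at 0 or 1000 bp. Joining within 2500 bp linked the Xrcc6 and P2rx1 regions to peaks of other libraries. The other alternatives only removed lower peaks or other libraries. They could not change the call of regions this tall and are no check on it. Mad1l1 and Medag are not thymocyte genes by any list used here, and their nearness does not show which gene a region serves. Of the 49 members with 400 tags or more, 5 lay nearest to a gene of the thymocyte lists, namely Rag1, Xrcc6, Rmnd5a and Cd8a, the last with 2 regions. The Cd8a and Rmnd5a regions are neighbours in 1 locus. Over all 2275 members 41 lay nearest to such a gene, and over all 30062 joined regions 351.

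At the pre-receptor gene Ptcra, whose product pairs with the beta chain before the alpha chain exists, 1 region of 331.5 tags covered the start (chromosome 17, 46761453 to 46765113). A smaller one of 53.1 tags lay on its far side, and the next regions outward were called in all 8 libraries, with 274.2 tags in thymus at Cnpy3 and 395.0 at Rpl7l1. Ptcra thus had a mid-sized thymus peak between shared ones.

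Genes of thymocyte development were described by 5 lists with 351 regions nearest to them, within 100 kb. Of these regions 41 (11.7%) were called in thymus alone, against 7.57% of all joined regions. The rule used the same calls and the lists were drawn up with earlier results in view, so nothing is read from that excess. The 41 lay at 27 of the 95 listed genes, 19 were inside the gene and 21 had under 80 tags. Requiring 80 tags of thymus peaks left 20, and counting only genes within 10 kb left 26.

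By role, the rearrangement list had 3 of 15 regions, at Rag1, at Xrcc6 and, with 83.0 tags, inside Dclre1c, the Artemis gene that opens hairpin ends. The list of double-positive thymocyte genes had 20 of 109, at 10 of 26 genes. Besides Cd8a, Cd8b1, Rmnd5a and Ptcra these were Tcf12, which encodes the E protein HEB, with 4 regions of 41.5 to 115.6 tags, the transcription factor genes Sox4 (3 regions of 57.3 to 133.4) and Myb (3 of 40.4 to 114.5), Tdrd5 (3 of 111.9 to 204.9), the selection gene Themis (59.4) and Ets2 (44.1). The list of E proteins and their Id inhibitors had 6 of 32 (18.8%), the 4 at Tcf12 and 1 each at Id3 (39.4) and Id4 (45.7).

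The early thymocyte and Notch list had 9 of 78 (11.5%), against 7.57% of all joined regions. Notch1, the receptor that commits precursors to the T lineage, had a region of 228.5 tags at 8994 bp outside the gene, while the gene itself carried one of 1352.1 tags in thymus that all libraries shared (445.5 to 1597.4 in the others). The Notch target genes Heyl and Hes1 had 2 each, with 136.6 and 40.4 tags inside Heyl and 50.4 and 69.9 at 68611 and 77123 bp from Hes1. Kit, the stem cell factor receptor gene, had 139.2 tags at 73114 bp, and Flt3, Bcl11a and Bcl11b had between 38.9 and 42.5. The list of selection and maturation genes, which stay in use after cells leave the thymus, had 8 of 133 (6.02%). Its tallest was 223.8 tags inside Runx1, with a second of 51.5. Runx3, Lef1, Klf2, Ccr7 and Id3 had regions of 39.4 to 69.9 tags.

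The next 5 lists stood near the 7.57% of all joined regions. Receptor complex and signalling genes had 6 of 94 (6.38%). These were led by 391.9 tags inside Lcp2, the SLP-76 adaptor gene, then 139.2 over Trgc2, 118.7 near Cd3e, 79.3 near Cd28, 75.1 near Ptprc and 38.9 near Trdc. Proliferation genes had 4 of 43 (9.3%), at Mcm2, Ccnd3 and E2f1, with at most 94.0 tags. Genes of gamma delta, NKT and innate-like cells had 4 of 61 (6.56%), at Il23r (139.7 and 43.6 tags), Klrb1c (128.7) and Sox13 (53.1). Regulatory T cell genes had 3 of 41 (7.32%), at Nrp1 (146.6), Ikzf2 (103.5) and Lrrc32 (69.9). Housekeeping genes had 2 of 21 (9.52%), the taller near Ywhaz (128.7). Genes of peripheral effector cells had 0 of 48, of which 11 had a thymus peak shared with other libraries.

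Lists of other cell types in the thymus had B cell genes with 3 of 14 regions, at Ebf1 (84.6 tags), Pax5 (48.9) and Blnk (45.2), myeloid and dendritic genes with 2 of 12, both at Itgam (191.2 and 38.9), thymic epithelial genes with 2 of 20, both at Cldn4 (142.9 and 41.0), and erythroid genes with 0 of 9. Among the defining markers, thymus regions lay on Itgam (154.5 tags), Spi1 (178.1), Foxn1 (65.7), Epcam (198.6) and Klf1 (195.9), and none on Csf1r, Lyz2, Krt8, Psmb11, Gata1 or Alas2. The part of such cells in these low regions was not tested.

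**Figure D4:**
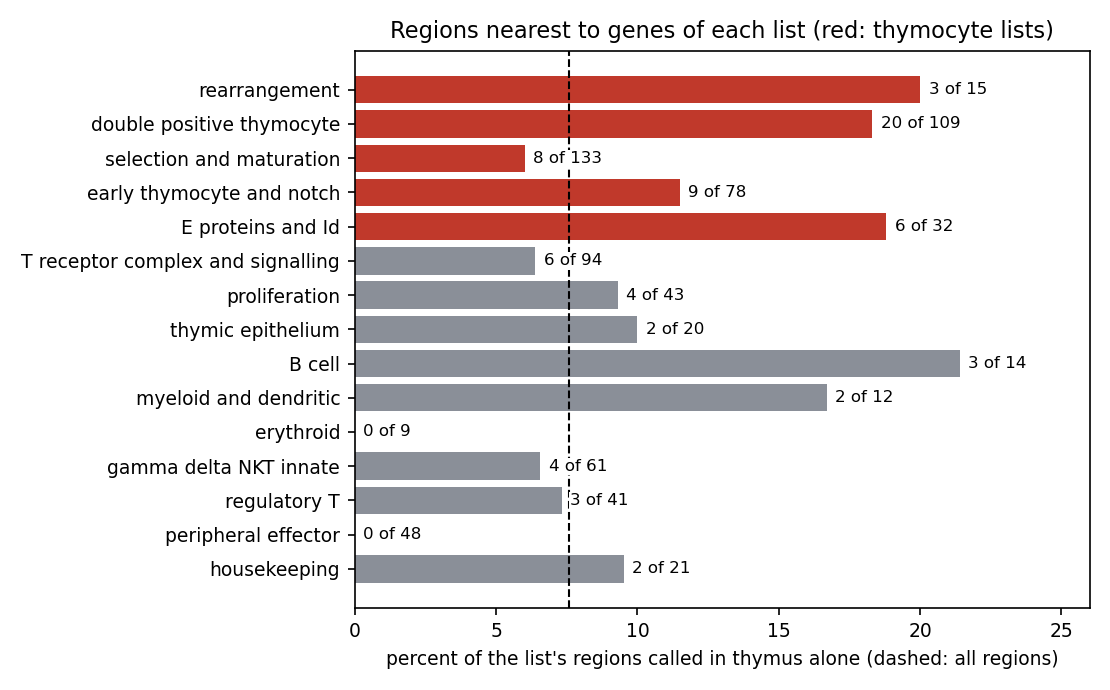
Percent of the regions nearest to the genes of each list that were called in thymus alone (horizontal axis), with counts at the bars; red marks the 5 thymocyte lists and the dashed line the 7.57% of all regions. The bars run from 0 of 48 for peripheral effector genes to 18.3% for double-positive thymocyte genes, 3 of 15 for rearrangement genes and 3 of 14 for B cell genes.

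Counting genes, 1518 were nearest to a member within 100 kb, 1175 of them to 1 and 127 to 3 or more. The most lay at Jazf1, with 8 regions of 64.1 to 685.0 tags and none of its 12 regions called in all 8 libraries. Mad1l1 had 7 of 40.4 to 1689.4 tags, Gse1 7 of 43.1 to 260.0, and Ano6, a lipid scramblase gene, 7 of 38.9 to 240.1. Tbc1d22a, Iftap, the zinc finger gene Zfp438, the homeobox gene Cux1 and the Notch co-activator gene Maml3 had 6 each, and Ldlrad3 5. Genes with 3 or more members were long, with a median of 135.4 kb. The median was 52.45 kb for genes with a member and 25.4 kb for genes nearest to any region. A gene must be nearest to at least 3 regions to enter the first group. The length of genes with 3 or more regions of any kind was not measured, so these medians are not like for like. Of the 1518 genes, 893 (58.8%) also had a region called in all 8 libraries, against 68.7% of the 13016 genes nearest to any region, and 228 had no region from another library.

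Members also lay in rows. With no region of another library between them, 828 of the 2275 formed 338 runs of at least 2, and 34 runs held 4 or more. The longest had 8 members over 248.9 kb near Slc7a11, a cystine transporter gene, with 40.4 to 209.1 tags. A run of 7 over 104.0 kb at Jazf1 summed to 1937.9 tags, and a run of 7 over 63.5 kb at Tcof1 and Arsi to 1644.2. The 6 members beyond Rag2 at Iftap, given above, were another such run. Runs were not counted in any other set of regions, so they are not read as particular to the thymus.

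Regions called in thymus alone lay on gene starts less often than other thymus regions. Of the 2204 on chromosomes with usable gene starts, 125 (5.67%, 95% Wilson interval 4.78 to 6.72) came within 1 kb of one, against 49.95% of the thymus regions shared with other libraries and 32.1% of all regions. The start table lacks part of the genes on other chromosomes as well as chromosome 18, and a region at such a gene counts here as away from a start, in every set. The sets differ in length. Among regions of up to 2 kb the shares were 5.20% for thymus alone and 14.9% for shared. Other library-restricted sets were low as well, at 8.50% for both ILC2 libraries alone and 4.89% for lymph node naive T cells and spleen alone. The intervals cover counting error only, regions are not replicates, and the share was 11.1% when every library gave equally many peaks.

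Regions called in thymus alone also overlapped coding genes less often than shared thymus regions, though hardly so among short ones. Coding genes were overlapped by 1246 members (54.8%, 52.7 to 56.8), against 66.4% of the ILC2 set, 62.6% of the naive T and spleen set, 79.95% of shared thymus regions and 72.2% of all regions. Among regions of up to 2 kb the values were 53.0% for thymus alone and 54.9% for shared thymus regions. Tall members, which are also long, overlapped a gene in 37 of 49 cases with 400 tags or more, and members under 80 tags in 738 of 1394.

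Outside genes, the 1029 remaining members had a median distance of 27248 bp to the nearest coding gene, with a counting interval of 23990 to 30474 bp. The median was 29713 bp for the ILC2 set and 29942 bp for the naive T and spleen set, both inside that interval. Their order against thymus alone is therefore not resolved. Regions called in lymph node naive T cells alone had a shorter median, 22868 bp. It was 20635 bp for shared thymus regions and 23889 bp for all regions. With every annotated gene counted, the distance of the members outside genes was 9033 bp. No coding gene lay within 100 kb of 219 members (9.63%), against 7.70% of the ILC2 set, 6.87% of the naive T and spleen set, 2.78% of shared thymus regions and 4.83% of all. Among regions of up to 2 kb the shares were 9.94% for thymus alone and 6.77% for shared thymus regions. Signal varied little with position, with medians of 71.5 tags on gene starts, 68.8 inside genes away from starts and 62.0 outside genes. The 3 farthest members had a next gene at 1065405 bp (Zfp386), 1051012 bp (Adam6a) and 889865 bp (Gsdmc), each of 44.1 to 45.2 tags. The first and second of these lay in the variable gene array of the immunoglobulin heavy chain, whose segments are not counted as coding genes here.

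**Figure D5:**
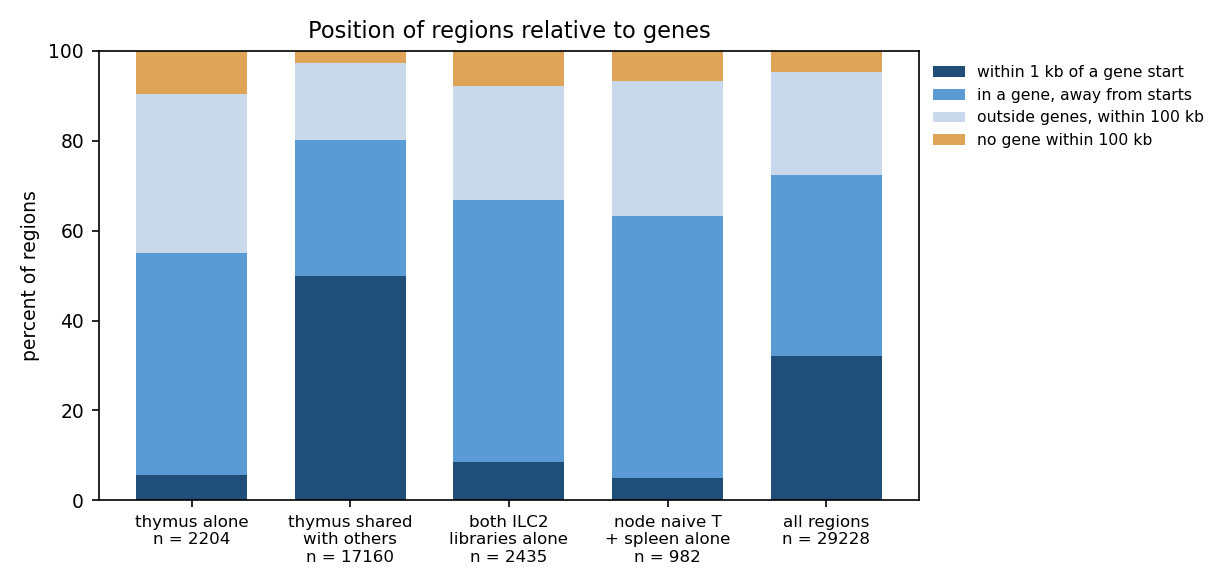
Percent of regions in each position class (stacked bars) for regions called in thymus alone, thymus regions shared with others, regions called in both ILC2 libraries alone, in lymph node naive T cells and spleen alone, and all regions. The class within 1 kb of a gene start is 5.67% for thymus alone and 49.95% for shared thymus regions.

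The 116 gene starts covered by members stood in 102 regions and belonged to 103 genes. Besides Rag1, Cd8a, Slc6a19 and Ptcra, the tall ones, named after their values were seen, included Pomgnt2 (451.2 tags) and F13a1, the clotting factor gene (414.5). Their 250 upstream bases had a median GC content of 59.8% and 10.5 CpG, against 60.8% and 17 CpG for the 11207 starts in shared thymus regions and 55.6% and 10 CpG for all starts. The SP1 letters GGGCGG stood in 55.2% of the starts covered by members, 62.2% of those in shared thymus regions and 42.6% of all starts. The Ikaros letters TGGGAA stood in 27.6% of member starts, 19.6% of shared ones and 20.9% of all. CAGCTG, which is also a CANNTG, stood in 15.5% of member starts, 10.8% of shared ones and 12.1% of all. The ETS letters CAGGAAG stood in 11.2% of member starts, 9.73% of shared ones and 10.2% of all. The AP-1 letters TGANTCA stood in 6.03% of member starts, 3.52% of shared ones and 6.13% of all. The GATA letters AGATAA stood in 5.17% of member starts, 5.27% of shared ones and 8.81% of all. The MYB letters AACNGTT stood in 2.59% of member starts, 2.61% of shared ones and 3.50% of all. The TCF and LEF letters CTTTGAT stood in 0 of 116 member starts, 2.2% of shared ones and 2.82% of all. All were read on both strands, and no test was made.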

How the data were processed

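H3K4me2 ChIP-seq peak lists of 8 mouse libraries were used. Bowtie, HOMER and the mm10 build are named, without versions, per the submitters' processing notes. Per the file headers, HOMER findPeaks was run on each library separately, stitching peaks of 1000 bp into regions at a minimum distance of 2500 bp, with a false discovery rate of 0.001, a 4-fold excess over IgG and about 40 tags per 10000000. The deposited signal is a normalized tag count made by the authors, and the deposited fold over IgG is a ratio from the same program. The authors' findPeaks score, also deposited, was not used. Depth per library is the total tags of the headers.

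Peaks within 500 bp were joined in Python 3.11.15 with pandas 2.3.3, NumPy 2.4.6, SciPy 1.17.1 and Biopython 1.88. The joining was tested on simulated peaks. Each region was assigned to the nearest of 21920 protein-coding or receptor constant genes of RefSeq GRCm38.p6 within 100 kb. Gene starts came from the RefSeq promoter table, which gave 17492 genes a start and none on chromosome 18, so start shares used 2204 members. No genome was used, so motifs were read in promoters and not in the regions. The members, gene lists and motifs were chosen with earlier results of these data known. Genes named are those of the lists with a member, the 15 tallest, the 10 with most members, the 5 longest, the 3 farthest from a gene and the 3 lowest and 3 closest to another library; the receptor variable arrays, microRNA genes and some gene starts were chosen after values were seen. With 1 thymus library no test was made. Alternatives varied the joining distance, tag and fold minimum, equal peak numbers, gene definition and each library left out. A few listed genes are not reported here.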

Additional observations from a re-analysis of the deposited data

How the results depend on the processing

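The number of regions called in thymus alone was 2275, 881 when thymus peaks needed 80 tags and 1362 when every library gave as many peaks as the shortest list, 14723. In those settings, and when all libraries needed 80 tags, the median signal was 125.0, 147.1 and 118.7 tags and the median length 2044, 2136 and 1862 bp, which follows from removing low peaks. The share overlapping a gene was 57.7%, 59.8% and 57.8% in the same 3 settings, and 67.0% with all annotated genes. The share within 1 kb of a start was 11.1% with equal peak numbers and 8.40% with 80 tags in all libraries. It was 10.8% within 5 kb and 10.4% when either end of a gene interval counted, a setting chosen after the data were seen. The distance outside genes was 23954 bp with 80 tags in all libraries and 9033 bp with all genes. Members of the thymocyte lists numbered 20 with 80 tags in thymus and 26 within 10 kb. Leaving out each other library in turn gave 2277 to 2827 regions (the highest without lymph node naive T cells), median signals of 65.7 to 65.95 tags, lengths of 1272 to 1277 bp, gene overlaps of 54.5% to 55.04%, start shares of 5.63% to 6.60%, distances of 25785 to 27623 bp and 41 to 46 list members. A count of this kind cannot fall when a library is removed. The thymus library could not be left out. Joining at 0, 1000 or 2500 bp and an 8-fold excess over IgG moved no value beyond its counting interval, and kept the number of regions between 2011 and 2293 and of list members between 28 and 42. No paired analysis was possible because thymus and spleen gave 1 library each and no test was made. No setting varied the depth, so how far low regions depend on it was not tested.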

Other observations

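The variable gene arrays of the antigen receptors, looked at after the values were seen, held 20 regions called in thymus alone. In the alpha and delta array on chromosome 14, where double-positive thymocytes rearrange, 25 of 31 regions had a thymus peak and 9 had no other; of all joined regions, 19913 of 30062 had a thymus peak and 7.57% were thymus alone. Lymph node naive T cells had a peak in 13 of the 31, lymph node ILC2s in 10, lavage ILC2s in 7, spleen in 4, and lavage naive T cells and both Th2 libraries in 0. Of all 30062 joined regions, lymph node naive T cells had a peak in 21089, lymph node ILC2s in 20727 and lavage ILC2s in 20621. Spleen had one in 19345, lavage naive T cells in 16162, lavage Th2 cells in 14188 and lymph node Th2 cells in 14099. The tallest of the 9 lay at Trav17 (394.0 tags, 53800181 to 53808127), followed by Trav3-4 (191.7), Trav21-dv12 (171.8) and Trav7-6 (164.9). Of the 9, 8 came within 1 kb of a variable segment, but so did most of the other regions of the array. In the beta array on chromosome 6, 4 of 15 regions were called in thymus alone, at Trbv4 (199.6 tags), Trbv2 (110.3), Trbv14 (91.4) and Trbv15 (52.5). The gamma array had 1 of 8, over Trgc2, with 139.2 tags. The heavy chain array of immunoglobulin, which B cells rearrange, had 6 of 32, each of 44.1 to 69.3 tags. These segments belong to repeated families, and how the authors placed reads that match several copies is not given in the sources used here.

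The neighbourhood of Myb, a transcription factor gene of dividing thymocytes, mixed both kinds of region. Inside Ahi1, the gene beside Myb, regions of 533.7, 127.1, 64.6 and 59.4 tags were called in thymus alone, and the Myb gene itself carried a region of 1028.5 tags in thymus and 290.5 to 676.7 tags in the other libraries.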
